A study of Mus musculus with 98 samples.

Results

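The 7 receptor genes considered here are those through which nerves and peptide hormones address lymphocytes: Vipr1, Vipr2, Nmur1, Ramp1, Ramp3, Calcrl and Ret. They were taken by name, and all 7 had a row among the 23420 genes of both expression tables. The series measured full-length polyA RNA in single innate lymphoid cells (ILCs), lymphocytes that carry no rearranged antigen receptor, from mouse intestine. R9-ILCs were regenerated from pluripotent stem cells, transplanted into Rag2-/-Il2rg-/- mice, which lack T, B and innate lymphocytes of their own, and sorted 3 weeks later as CD45.2+GFP+Lin-CD127+ cells. WT-ILCs were sorted as CD45.2+Lin-CD127+ cells from wild-type C57BL/6 mice of the CD45.2 strain, aged 8 weeks, so GFP, the origin of the cells and the host differed between the groups together. The labels give C57BL/6 as the strain of both.

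R9 titles come in 2 series, 32 cells without a number at the end and 35 cells of ending 1, and the labels do not say what separates them. The 31 WT columns were treated as 22 cells, because some columns correlated closely over the genes that both detected. Joining is an assumption for WT cells 31, 15, 24 and 9, in whose columns the overlap of detected genes was 24.01, 26.4, 30.6 and 31.1%. It is also an assumption for the column numbered 16, which was averaged with 2 columns numbered 32 (Pearson correlations 0.968 and 0.964). Joining by cell number only gave 23 WT cells. No animal is named, so each set of cells counts as 1 sample. For that reason no test was made, every SD is a spread over cells, and every interval on a share of cells is an exact Clopper-Pearson 95% interval that covers counting error only.

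Vasoactive intestinal peptide (VIP) acts through VPAC1 and VPAC2, the products of Vipr1 and Vipr2, which couple to Gs and raise cAMP. In the gut VIP is released by enteric neurons, and VPAC2 on ILC3 is known to tune IL-22 production with feeding. Neuromedin U acts through NMUR1, a Gq-coupled receptor best known from ILC2. Calcrl encodes a receptor that gains its ligand only from a partner: with RAMP1 it binds calcitonin gene-related peptide (CGRP), with RAMP2 or RAMP3 it binds adrenomedullin. RET is the receptor tyrosine kinase for GDNF family ligands, which it binds together with a GFRA co-receptor, and glial GDNF family ligands are known to act on RET in gut ILC3.

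The cells carried the markers of ILC3. All 11 ILC3 markers were detected (1 TPM or more, TPM being transcript abundance scaled to 1 total per cell) in at least 1 cell of each set. Il23r, which encodes a subunit of the IL-23 receptor through which ILC3 are activated, was detected in 27 of 32 R9 cells of no ending, 33 of 35 of ending 1 and 20 of 22 WT cells. Of 11 ILC2 markers 6, 5 and 5 were detected in these sets, with Gata3 in 22, 10 and 5 cells and Arg1 in 17, 15 and 21, while the cytokine genes Il5 and Il13 were below the limit in every cell. Of 9 markers of ILC1 and NK cells 5, 3 and 5 were detected, with Ncr1 in 10, 0 and 4 cells and Ifng, Gzma and Prf1 in none. Per cell, a median of 2082.5, 2429 and 2092.5 genes reached 1 TPM in these sets, and TPM gives no record of depth. One gene took up at least 10% of the TPM in 26 R9 cells without an ending, in 1 of ending 1 and in 5 WT cells. Gapdh was listed at 0 in 24, 1 and 9 cells, so a value of 0 in these tables may be a failed estimate and is written below as listed at 0. Of 10 mast cell and basophil markers, 6 were detected where R9 titles had no ending (summed level 61.1 to 4659 TPM, median 1349 TPM). Ending 1 had 3 (0 to 616 TPM, median 0) and WT had 1 (0 to 3.92 TPM, median 0). Tpsb2 was in 31, 0 and 0 cells, Cpa3 in 30, 3 and 0 and Cma1 in 28, 0 and 1. Mcpt1, Mcpt2, Hdc and Ms4a2 were at 0 where R9 titles had no ending. Of 11 epithelial markers 10, 11 and 11 were detected, with summed levels of 10.6 to 435803 TPM (median 851 TPM), 0.753 to 11835 TPM (median 35.8 TPM) and 11.7 to 102560 TPM (median 7505 TPM). Of 8 macrophage and dendritic cell markers 7, 4 and 6 were detected, with summed levels of 39.99 to 3920 TPM (median 445 TPM), 0 to 1874 TPM (median 0) and 0 to 4834 TPM (median 1.49 TPM). Lyz2 of that list was in 31, 10 and 7 cells and C1qc in 17, 1 and 6, while Csf1r, C1qb, Itgax and Flt3 were below the limit in ending 1. The part of these differences in the receptor values was not tested.

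Only Ramp1 and Ramp3 were seen in more than 3 cells of an R9 series. In the order R9 without ending, R9 of ending 1, WT, Ramp1 was detected in 31, 34 and 20 cells and Ramp3 in 5, 32 and 13, out of 32, 35 and 22. Vipr2 was detected in 8 WT cells and 1 R9 cell. Vipr1 was detected in 2, 3 and 2 cells, Nmur1 in 1, 2 and 3, Ret in 2, 2 and 5, and Calcrl in 1, 1 and 0. A cell held a median of 1, 2 and 2 of the 7 genes and at most 3, 3 and 5. WT cells 17 and 9 were the 2 cells with 5, both holding Vipr2, Nmur1, Ramp1, Ramp3 and Ret.

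**Figure D1:**
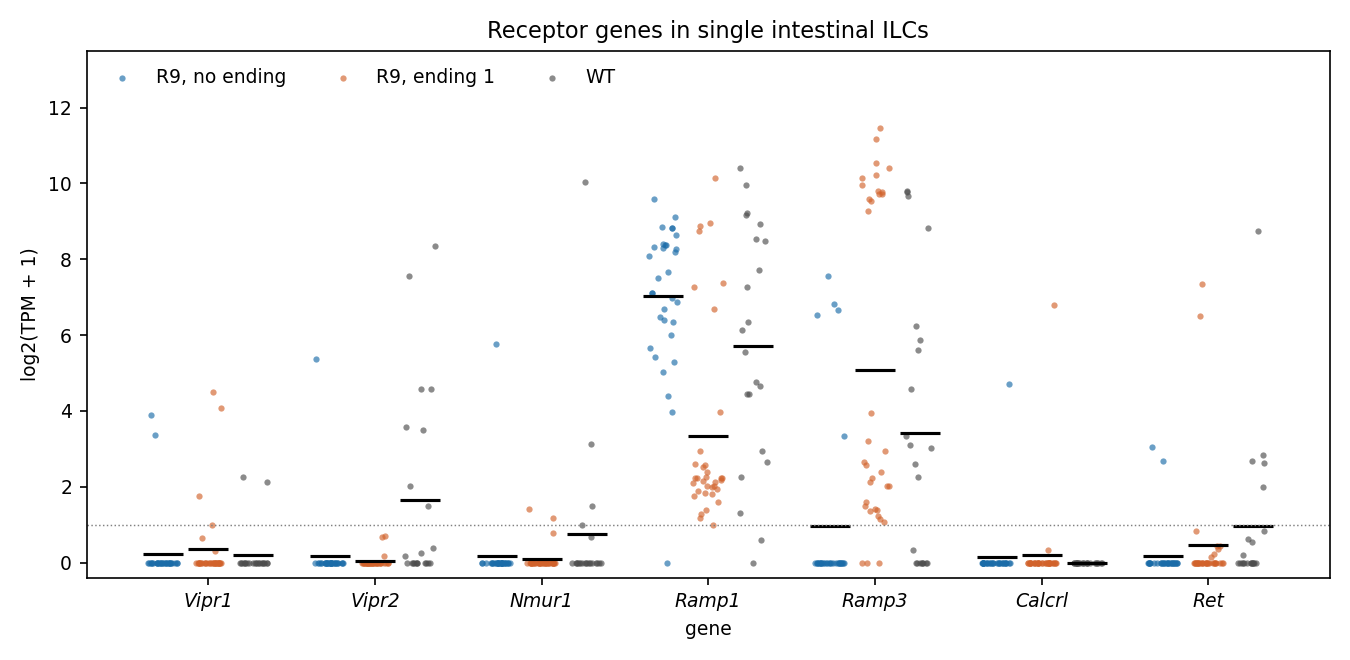
Level of each receptor gene, as log2(TPM + 1), in each of 32 R9 cells without a title ending (blue), 35 R9 cells of ending 1 (orange) and 22 WT cells (grey). Each point is 1 cell, black bars are means over cells and the dotted line marks 1 TPM. Ramp1 and Ramp3 of ending 1 fall into a low band and a separate high band, and the other genes rest on few cells.

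Because Ramp1 and Ramp3 carry most of the signal, the 250 bases before their RefSeq starts are shown (GRCm38.p6, plus strand, chr1:91179572-91179821 for Ramp1 and chr11:6658283-6658532 for Ramp3). Capitals mark GC boxes, GGGCGG on either strand.
Ramp1: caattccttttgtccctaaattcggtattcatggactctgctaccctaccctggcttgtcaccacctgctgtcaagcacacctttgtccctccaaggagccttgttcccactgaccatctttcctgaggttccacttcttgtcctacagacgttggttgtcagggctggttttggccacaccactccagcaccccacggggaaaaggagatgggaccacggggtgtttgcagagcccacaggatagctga
Ramp3: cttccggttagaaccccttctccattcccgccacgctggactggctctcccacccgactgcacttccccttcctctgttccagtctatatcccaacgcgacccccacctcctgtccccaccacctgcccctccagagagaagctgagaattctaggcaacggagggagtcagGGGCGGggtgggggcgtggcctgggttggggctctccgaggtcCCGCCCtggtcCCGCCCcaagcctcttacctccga
The Ramp3 stretch held 3 GC boxes, beginning 78, 35 and 24 bases before the start, 13 CpG and 65.2% GC. The Ramp1 stretch held no GC box, 4 CpG and 54.0% GC. Over 32851 such stretches the median was 6 CpG and 52.4% GC, and 32.74% held a GC box. Neither stretch held AGGTCA, a nuclear receptor half-site (in 14.02% of all stretches), or TGACG, the core of the cAMP response element (in 17.77%), on either strand. These matches describe letters only. An entry was found for 6 of the 7 genes, Ret being without one.

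Of the genes of the VIP receptors, Vipr2 was detected in a larger share of WT cells than of R9 cells. Vipr2 (ENSMUSG00000011171, chr12:116077726-116146261, plus strand, GRCm38) was detected in 8 of 22 WT cells, or 36.4% (interval 17.2 to 59.3%). The 8 values were 323, 188, 23.1, 22.7, 11.02, 10.3, 3.09 and 1.84 TPM, so 2 cells lay far above the rest, and 11 WT cells were listed at 0. The R9 series without an ending had 1 cell of 32 with Vipr2, at 40.4 TPM (3.12%, interval 0.0791 to 16.2%). R9 cells of ending 1 had none at 1 TPM, which allows a share of up to 10.003%, and their highest value was 0.638 TPM. Mean log2(TPM + 1) was 1.66 ± 2.58 (SD, n = 22 cells) in WT, 0.17 ± 0.95 (n = 32) without an ending and 0.04 ± 0.17 (n = 35) in ending 1, so the sets lay within the WT spread of each other. The mean level was 26.5 TPM in WT, 1.26 TPM without an ending and 0.0391 TPM in ending 1. R9 over WT, the log2 ratio of mean TPM + 1 was -3.605 without an ending and -4.73 in ending 1. With the highest cell of each set left out the ratios were -3.75 and -3.72. That removed the WT cell at 323 TPM and, without an ending, the only cell of that R9 series with Vipr2. The mean without an ending was then 0, so -3.75 reflects the WT mean and the 1 TPM added. WT cell 23, at 188 TPM, stayed in both ratios. Among WT columns of ending 1 alone the mean was 5.61 TPM, and the ratio of R9 without an ending to them was -1.55.

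Vipr1 (ENSMUSG00000032528, chr9:121642716-121672954, plus strand), the gene of VPAC1, was low in all 3 sets. Of the R9 cells, 2 without an ending had it at 13.9 TPM and 9.34 TPM, and those of ending 1 at 21.6, 15.98 and 2.36 TPM in 3 cells. WT cells had it at 3.75 TPM and 3.39 TPM in 2 cells, inside the range of the R9 values. The shares were 6.25% (interval 0.766 to 20.8%), 8.57% (1.80 to 23.1%) and 9.09% (1.12 to 29.2%), and the intervals overlapped. The 2 highest cells of ending 1 had 6042 and 5787 genes and all 11 epithelial markers, and the 2 WT cells had 7518 and 5261 genes with 10 and 11 epithelial markers. The part of other cells' RNA in these 4 values was not tested. The third cell of ending 1, at 2.36 TPM, had 5310 genes. The 2 R9 cells of the other title series had 2618 and 1905 genes with 2 and 6 epithelial markers and 4 and 2 mast cell markers. Without the cells that held 10000 TPM or more of epithelial markers in sum, Vipr1 was in 0 of 24 cells without an ending, 2 of 33 of ending 1 and 0 of 11 WT cells. Without cells of over 4000 genes it was in 2 of 32, 0 of 31 and 0 of 20.

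Nmur1 (ENSMUSG00000026237, chr1:86386303-86426228, minus strand) reached a high level in 1 cell. WT cell 17 held 1059 TPM, from 1078 TPM and 1040 TPM in its 2 columns, and the other detected WT cells held 7.79 and 1.82 TPM. Among R9 cells it stood at 53.1 TPM in 1 cell of no ending, and at 1.65 and 1.27 TPM in 2 cells of ending 1. The shares were 13.6% in WT (interval 2.91 to 34.9%), 3.12% (0.0791 to 16.2%) and 5.71% (0.700 to 19.2%), which overlap. Cell 17 supplied 99.0% of the summed Nmur1 of the WT cells. The log2 ratios of R9 over WT were therefore -4.22 and -5.49 with all cells but -0.62 and -0.53 without the highest cell of each set. Cell 17 held 10 of 11 ILC3 markers and 1 of 11 ILC2 markers, with 1915 genes in all. The R9 cell at 53.1 TPM held 9 ILC3 markers and none of ILC2.

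Calcrl (ENSMUSG00000059588, chr2:84330626-84425411, minus strand), the receptor that the RAMP proteins serve, was nearly missing. It stood at 24.97 TPM in 1 of the 32 R9 cells of no ending and at 110 TPM in 1 of 35 of ending 1, with a further cell of ending 1 at 0.249 TPM. It was listed at 0 in all 22 WT cells, which allows a share of WT cells with Calcrl of up to 15.4%. The R9 shares were 3.12% (interval 0.0791 to 16.2%) and 2.86% (0.0723 to 14.9%), and the WT limit lay above both. The R9 cell at 24.97 TPM also held Ramp1 at 116 TPM and Ramp3 at 91.2 TPM, and the R9 cell at 110 TPM held Ramp1 at 2.52 TPM and Ramp3 at 1495 TPM. These 2 cells held 9 and 10 ILC3 markers, 3 and 4 epithelial markers, 4 and 0 mast cell markers and no endothelial marker. Without the cells that were rich in epithelial markers Calcrl was in 0 of 24 cells without an ending and 1 of 33 of ending 1. Ramp2, the third partner, and Calcr, the calcitonin receptor that also takes RAMP partners, were listed at 0 in all 89 cells. Of 11 markers of endothelium, a cell type rich in Calcrl, 2, 3 and 3 were detected, with summed levels of up to 101.1, 408 and 497 TPM. Pecam1, which leukocytes also carry, was in 3, 3 and 5 cells, while Cdh5, Kdr, Tie1 and Emcn were below 1 TPM in every cell.

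Ramp1 (ENSMUSG00000034353, chr1:91179822-91225196, plus strand), the partner that makes Calcrl a CGRP receptor, was the most widely detected member. Without an ending, R9 cells ran from 0 TPM through a median of 159 TPM to 764 TPM. R9 cells of ending 1 ran from 0.977 TPM through a median of 3.68 TPM to 1141 TPM, and WT cells from 0 TPM through 58.0 TPM to 1361 TPM. The ranges overlapped, and the medians stood far apart. At a limit of 10 TPM Ramp1 was found in 31 of 32 cells without an ending (96.9%, interval 83.8 to 99.9%), 8 of 35 of ending 1 (22.9%, 10.4 to 40.1%) and 16 of 22 WT cells (72.7%, 49.8 to 89.3%). At 100 TPM the counts were 21 (65.6%, 46.8 to 81.4%), 7 (8.44 to 36.9%) and 9 (40.9%, 20.7 to 63.6%). At both limits the interval of ending 1 lay below that of the R9 cells without an ending. The share of all genes with intervals apart in this way was not computed. By log2 ratio of mean TPM + 1, 76.5% of all genes compared differed by 1 or more between these series, with 14.4% lower in ending 1. Mean log2(TPM + 1) was 7.03 ± 1.94 (SD, n = 32 cells), 3.33 ± 2.62 (n = 35) and 5.72 ± 3.16 (n = 22). On that scale only the 2 R9 series lay further apart than either of their SDs. By mean TPM the order was 246 in WT, 222 without an ending and 87.3 in ending 1, so WT and R9 without an ending change places between the 2 kinds of mean.

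Ramp3 (ENSMUSG00000041046, chr11:6658521-6677475, plus strand), the partner that makes Calcrl an adrenomedullin receptor, was ordered the other way in R9 cells. Among R9 cells of no ending 5 of 32 had it, at 187, 112, 100.4, 91.2 and 9.18 TPM, and the other 27 were listed at 0. R9 cells of ending 1 had it in 32 of 35 cells, from 0 TPM through a median of 5.34 TPM to 2847 TPM. WT cells had it in 13 of 22, from 0 TPM through a median of 6.14 TPM to 895 TPM. The shares at 1 TPM were 15.6% (interval 5.28 to 32.8%), 91.4% (76.9 to 98.2%) and 59.1% (36.4 to 79.3%). The 3 intervals did not overlap except for those of ending 1 and WT. The share of all genes with intervals apart in this way was not computed. At 10 TPM the shares were 12.5% (3.51 to 28.99%), 42.9% (26.3 to 60.6%) and 36.4% (17.2 to 59.3%), and every pair of intervals overlapped. At 100 TPM they were 9.38% (1.98 to 25.02%), 14 of 35 cells (23.9 to 57.9%) and 18.2% (5.19 to 40.3%), and every pair of intervals overlapped. Mean log2(TPM + 1) was 0.97 ± 2.36, 5.09 ± 4.24 and 3.41 ± 3.62, and no pair of sets differed by more than the larger of its SDs.

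**Figure D2:**
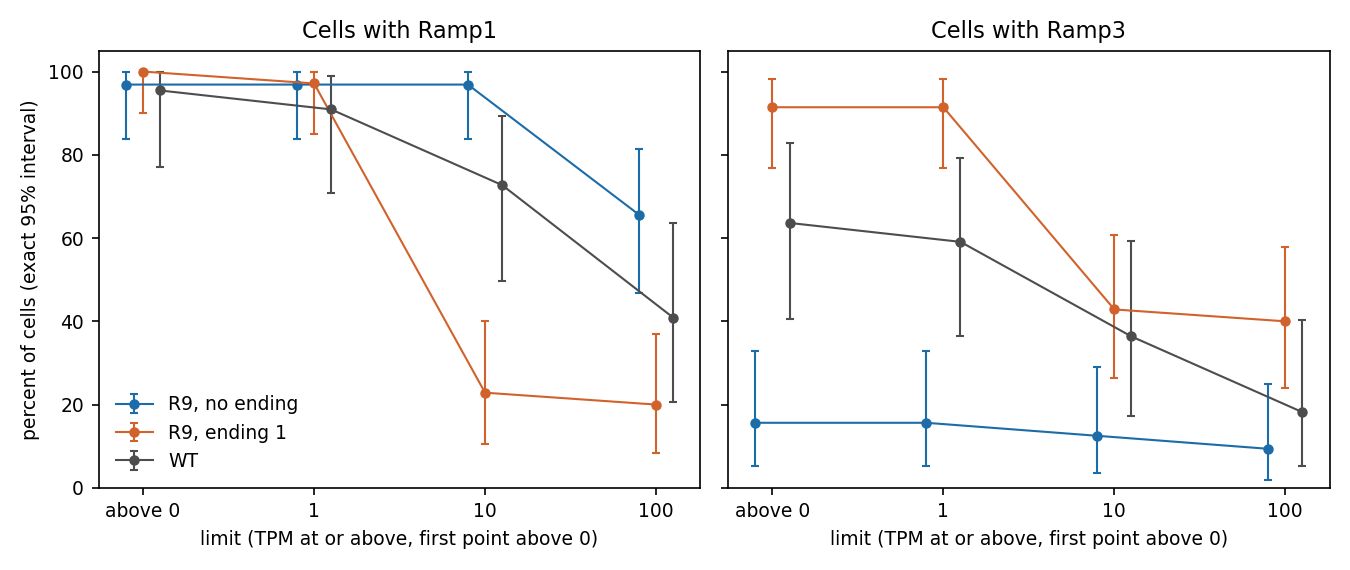
Percent of cells with Ramp1 (left) and Ramp3 (right) above 0 and at or above 1, 10 and 100 TPM, with exact 95% intervals, for R9 cells without an ending (blue), R9 cells of ending 1 (orange) and WT cells (grey). The Ramp1 line of ending 1 drops from 97.1% of cells at 1 TPM to 22.9% at 10 TPM, and its Ramp3 line from 91.4% to 42.9%.

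In R9 cells of ending 1 both genes fell into 2 bands with nothing between 20 and 100 TPM. For Ramp1, 28 cells lay above 0 and below 20 TPM, with a median of 3.31 TPM and a highest value of 14.6 TPM, and 7 cells lay at 102 TPM or more. For Ramp3, 3 cells were listed at 0, 18 lay in the low band with a median of 3.04 TPM and a highest value of 14.5 TPM, and 14 lay at 614 TPM or more. The other R9 series had 1 cell below 20 TPM and above 0 for each gene, and WT cells had 5 for Ramp1 and 6 for Ramp3. WT cells filled the range between 20 and 100 TPM with 7 cells for Ramp1 and 4 for Ramp3. Low values of this kind were common to the genes of a set. Among genes at 100 TPM or more in at least 5 cells, the median share of the remaining cells with a value above 0 and below 20 TPM was 5.56% without an ending (1474 genes), 48.0% in ending 1 (2881 genes) and 37.5% in WT (1036 genes). In ending 1 that share was 100% for Ramp1 and 85.7% for Ramp3, above 98.6% and 93.2% of those genes, and a share of cells at 1 TPM therefore reads the low band of that set.

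High Ramp1 and high Ramp3 were counted cell by cell. At 100 TPM in ending 1, 6 of 35 cells held Ramp1 alone, 13 held Ramp3 alone, 15 held neither, and only cell 22 held both, with 494 TPM of Ramp1 and 736 TPM of Ramp3. Without an ending, 18 cells held Ramp1 alone, 3 held both, none held Ramp3 alone and 11 held neither. Among WT cells 6 held Ramp1 alone, 1 held Ramp3 alone, 3 held both and 12 held neither. Over the cells of a set, the Spearman correlation of the 2 levels was -0.08 in ending 1 (n = 35) and 0.19 in WT (n = 22), from values that share each cell's library and scaling.

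**Figure D3:**
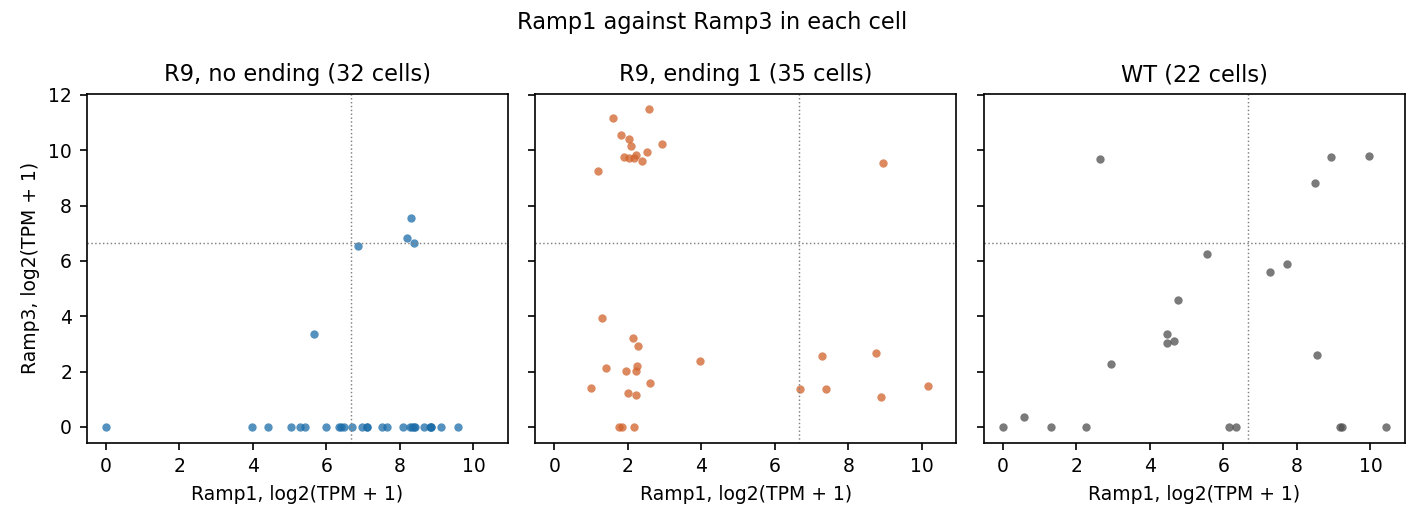
Ramp1 against Ramp3 in each cell, both as log2(TPM + 1), for the 3 sets of cells, with dotted lines at 100 TPM. In ending 1 the 13 cells above the line for Ramp3 alone and the 6 above the line for Ramp1 alone stand beside 1 cell above both and 15 above neither.

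Ret (ENSMUSG00000030110, chr6:118151745-118197718, minus strand) was detected in 5 of 22 WT cells, at 431, 6.18, 5.39, 5.22 and 3.01 TPM. Among R9 cells, 2 without an ending held 7.34 and 5.42 TPM, and R9 cells of ending 1 held 162 and 90.6 TPM in 2 cells. The shares were 22.7% (interval 7.82 to 45.4%), 6.25% (0.766 to 20.8%) and 5.71% (0.700 to 19.2%), and the intervals overlapped. The highest WT value came again from cell 17, with 429 TPM and 433 TPM in its 2 columns, which supplied 95.2% of the summed Ret of WT cells. R9 over WT, the log2 ratio of Ret was -3.95 without an ending and -1.38 in ending 1, and -0.79 and 0.87 without the highest cell of each set. The 2 R9 cells of ending 1 with Ret were cells 31 and 15, which held Ramp3 at 1125 TPM and 2847 TPM. They held 9 and 8 ILC3 markers, no marker of enteric glia and none of enteric neurons, the gut cells in which Ret is best known. Enteric neuron markers at 1 TPM or more were found in no R9 cell, and 2 of 10 were found among WT cells, both in cell 2, which held 3 of 6 glial markers, 7518 genes and Ret at 6.18 TPM. Of the co-receptors, Gfra1 and Gfra2 were each detected in 1 WT cell that also held Ret, with means over WT of 0.196 TPM and 0.861 TPM. Gfra3 was detected in 1 cell of ending 1 that did not hold Ret at 1 TPM, with a mean of 1.01 TPM. Gfra4 was listed at 0 throughout.

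How closely 2 columns of a WT cell matched depended on the cell. Cell 17 gave Ramp1 at 453 TPM and 523 TPM, Ramp3 at 849 TPM and 888 TPM and Vipr2 at 23.7 TPM and 21.8 TPM. The 3 columns joined as cells 16 and 32 gave Ramp1 between 315 TPM and 387 TPM and Ramp3 between 372 TPM and 514 TPM. In cell 9, by contrast, Vipr2 came from 1 column (3.68 TPM) and Nmur1, Ramp3 and Ret from the other (15.6, 15.03 and 10.4 TPM). The 2 columns of cell 31 gave Ramp1 at 153 TPM and 156 TPM, while Ramp3 was 95.4 TPM in 1 and listed at 0 in the other. The joined columns of cells 31 and 9 shared 24.01% and 31.1% of the genes detected in either, against 70.3% for cell 17, so the count of 5 receptors in cell 9 rests on the assumption that its columns are 1 cell.

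Between the 2 R9 series, which stand in 1 table, 6 of the 7 genes had a log2 ratio of mean TPM + 1 of 1 or more in size, where 76.5% of all 8363 genes compared did. Ending 1 was higher for Ramp3 (4.87), Ret (2.57) and Calcrl (1.22), where 62.1% of all genes were higher, and lower for Ramp1 (-1.34), Nmur1 (-1.27) and Vipr2 (-1.12), where 14.4% were lower. Vipr1 was at 0.35. Since the median over all genes was 1.51, Ramp3 lay 3.36 above it and Ramp1 2.84 below it, and 98.6% and 11.7% of all genes had lower ratios than these. With cells scaled to the level of 223 common genes, the median over all genes was 0.41, Ramp3 was at 3.95 and Ramp1 at -2.58. Without the highest cell of each set Ramp3 was at 5.23 and Ramp1 at -1.84, while Calcrl was at 0.01, Nmur1 at 0.08 and Vipr2 at 0.03. Leaving out the cells with 10% of TPM in 1 gene left 6 cells without an ending, all with Ramp1 and none with Ramp3 at 1 TPM, and brought Ramp1 to -0.94. The mast cell, macrophage and single-gene values given above moved with this comparison, and their part in it was not tested.

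R9 and WT values stand in tables that were normalized separately, and the comparisons below share the WT cells. R9 cells without an ending against WT had 4 of 5 genes compared at 1 or more in size (all genes 64.2%), all 4 lower and none higher (all genes 38.9% and 25.3%): Nmur1, Ret, Vipr2 and Ramp3 (-3.17), with Ramp1 at -0.15. As a difference of mean log2(TPM + 1), which weights single high cells less, that Ramp1 value was 1.31 and changed sign. R9 cells of ending 1 against WT had 5 of 6 (all genes 65.1%), of which Ramp3 was higher at 1.70 (all genes 47.6%) and Nmur1, Vipr2, Ramp1 (-1.48) and Ret were lower (all genes 17.5%), with Vipr1 at 0.73. All 67 R9 cells against WT had 3 of 5 (all genes 59.6%), Nmur1 at -4.75, Vipr2 at -4.08 and Ret at -2.11, all lower and none higher (all genes 20.1% and 39.5%), with Ramp3 at 0.81 and Ramp1 at -0.69. The medians over all genes were -0.44, 0.89 and 0.52. Against them the Ramp1 ratio of ending 1 lay 2.37 below, and its Ramp3 ratio 0.81 above. Only for Vipr2 were all 3 ratios below -3 both with and without the highest cells. Without those cells, R9 levels at or near 0 stood against the same WT mean. On mean log2(TPM + 1) Vipr2 was at -1.49 without an ending and -1.61 in ending 1. With 10 TPM added in place of 1 it was at -1.70 and -1.86.

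**Figure D4:**
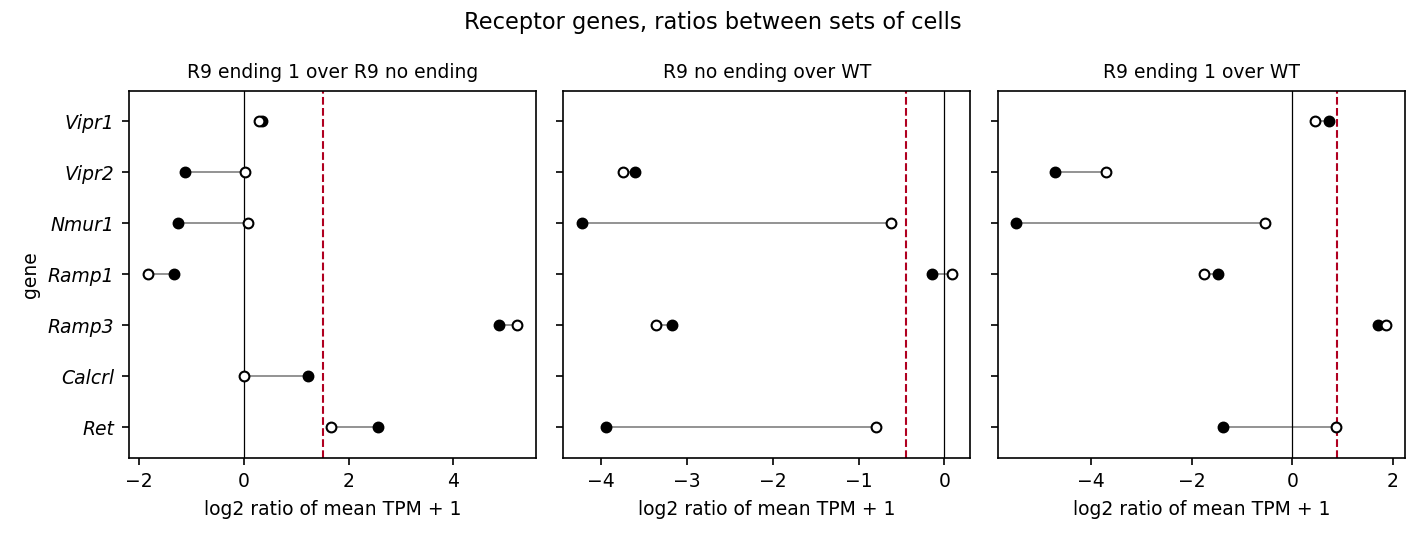
Log2 ratio of mean TPM + 1 for each receptor gene in 3 comparisons of sets of cells, with all cells (filled) and without the highest cell of each set (open). The dashed red line is the median over all genes compared, and genes listed at 0 in a set or below 1 TPM in both have no point. Nmur1 and Ret against WT move by more than 2 on leaving out the highest cells, and Ramp3, Ramp1 and Vipr2 against WT by about 1 or less.

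The ligands of these receptors were nearly all listed at 0. Of 16 ligand genes measured, 4 were detected, and Vip, Adcyap1, Nmu, Nms, Calca and Calcb were not among them. Adm, the gene of adrenomedullin, was the exception, in 4 of 32, 8 of 35 and 8 of 22 cells with means of 3.58, 62.9 and 147 TPM. Nrtn, Pspn and Gdnf were each detected in 1 R9 cell. Among 15 receptor partners and relatives 6 were detected, and Crcp, a CGRP receptor component that also serves RNA polymerase III, was the only one with a mean above 10 TPM. It was found in 10, 12 and 10 cells, with means of 31.9, 64.6 and 102 TPM.

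Other receptors for nerve signals were rare. Of the 8 adrenergic receptor genes reported here, Adra2a was detected in 1 R9 cell of ending 1 and Adra2b in 1 WT cell, and the other 6 in none. Of 29 acetylcholine and other transmitter receptors, 6 were detected. Chrnb1, a nicotinic receptor subunit, was found in 2 WT cells with a mean of 27.1 TPM, of which 1 cell supplied 99.8%. Sstr2, a somatostatin receptor, was found in 3 R9 cells without an ending with a mean of 16.2 TPM.

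The signalling genes downstream were widely detected. Of 23 genes of Gs and cAMP signalling, 12 could be compared between the R9 series, 9 higher and 1 lower in ending 1 by a log2 ratio of 1 or more, with a median of 1.63. Over all genes 62.1% were higher and 14.4% lower, with a median of 1.51. Gnas, the Gs alpha subunit, was found in 27, 35 and 22 cells at means of 259, 971 and 443 TPM, and Prkar1a, a regulatory subunit of protein kinase A, in 31, 35 and 20 cells at 238, 658 and 220 TPM. Pde4b, which degrades cAMP, had means of 15.02, 58.3 and 13.02 TPM, and Prkaca, the catalytic subunit, 16.5, 25.9 and 2.36 TPM. Of 16 genes of Gq and calcineurin signalling, 8 of 14 compared were higher and 2 lower in ending 1 (median 1.82, beside 62.1%, 14.4% and 1.51 for all genes). Nfatc1, the transcription factor that calcineurin activates, had means of 12.5, 95.3 and 72.4 TPM, and Gnaq, the Gq subunit, 532, 12.5 and 0.349 TPM, with 99.5% of the first sum in 1 cell. The calcineurin subunits Ppp3r1 and Ppp3ca had means of 45.2, 47.2 and 39.9 TPM and of 11.2, 82.8 and 22.5 TPM.

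Of 13 genes that end receptor signals, 4 of 10 compared were higher and 3 lower in ending 1, with a median of 0.21 where all genes had 62.1% higher, 14.4% lower and a median of 1.51. Rgs10, which speeds the shutdown of G proteins, had the order of Ramp3 by mean, in 2, 17 and 8 cells at means of 4.88, 206 and 187 TPM. Rgs1, of the same family, was found in 21, 12 and 10 cells at 138, 16.4 and 9.82 TPM. Rgs14 had means of 46.8, 61.9 and 82.9 TPM and Rgs19 of 51.7, 52.5 and 25.8 TPM. Of 11 RET adaptors and kinases, 2 of 6 compared were higher and 1 lower (median 0.98), beside the same values for all genes. The adaptor Dok1 had means of 48.5, 241 and 115 TPM, Shc1 of 69.2, 139 and 3.16 TPM, Dok2 of 89.6, 36.2 and 3.604 TPM and Grb2 of 24.1, 40.8 and 9.12 TPM.

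Against WT, genes of Gs and cAMP signalling stood at a median of 0.07 over 12 genes for R9 of no ending and 1.09 over 16 genes in ending 1, beside -0.44 and 0.89 for all genes. Genes of Gq and calcineurin signalling stood at 0.14 and 1.54 over 14 genes, those that end receptor signals at 0.97 and 0.63 over 11 genes, and RET adaptors and kinases at 0.24 over 6 genes and 0.14 over 9. These medians describe the lists, and no list was tested against all genes. The widest gap was that of the genes that end receptor signals without an ending, at 0.97 beside -0.44. In ending 1 the same genes stood at 0.63 beside 0.89.

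The genes whose levels followed a receptor most closely over the cells of a set were taken by Spearman correlation, as a description over cells that share library, depth and scaling. Ramp1 was nearest to Itm2b (0.90) and Actg1 (0.90) over the 32 cells without an ending, to Immp2l (0.60) and Snrpc (0.50) over the 35 of ending 1, and to Cd52 (0.86) and Cd82 (0.80) over the 22 WT cells. Ramp3 was nearest to Trim35 (0.58) and Def6 (0.56) in ending 1 and to Commd4 (0.91) and Atp6v1g1 (0.86) in WT. Vipr2 was nearest to Stx5a (0.77) and Ccdc115 (0.76) in WT. No gene was near the same receptor in 2 sets by this rule, which names 2 genes in each.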

How the data were processed

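The authors deposited TPM (transcript abundance scaled to 1 total per column) for 23420 genes in 2 tables, 1 for R9 and 1 for WT, with 98 single-cell columns, each summing to 1000000, per the file headers and values. Per the labels' protocols, cells went through the Discover-sc WTA Kit V2, then the TruePrep DNA Library Prep Kit V2. The submitters' processing notes name StringTie 1.3.4, HISAT2 2.1.0, SAMtools 0.1.19, bcl2fastq and mm10. Depth cannot be read from TPM, so the number of genes at 1 TPM stands beside the values.

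WT columns that correlated above 0.8 (Pearson, log2(TPM + 1), genes at 1 TPM or more in both) were averaged, which left 89 cells in all. One WT column matched its group but no single title. Cells were grouped by their titles. Detection was 1 TPM or more. Ratios are log2((mean TPM + 1)/(mean TPM + 1)), on a scale that understates differences of low genes, over genes whose mean reached 1 TPM in at least 1 set and was above 0 in both. The last condition was added after the values were seen. A ratio of 1 or more in size was counted as a difference. No test was made, since each set is 1 sample.

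The 7 genes, the gene lists and the settings were chosen with earlier results of these data known. Named besides the members were up to 4 genes of each list with the highest mean over the 3 sets, and for each member, in each set with it in 8 or more cells, the 2 nearest genes by Spearman correlation. The limit of 20 TPM was chosen after the values were seen. Some genes of the lists are not reported here. Coordinates come from GENCODE annotation of GRCm38, the build of mm10, and promoter stretches from RefSeq. The ratio script was tested on simulated data. Work was done in pandas 2.3.3, numpy 2.4.6, scipy 1.17.1 and matplotlib 3.10.9 under Python 3.11.15. Other settings tried changed the cells kept, the joining of WT columns, limits, scaling, pseudocount and kind of mean.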

Additional observations from a re-analysis of the deposited data

How the results depend on the processing

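Of 231 log2 ratios of single receptor genes recomputed under the alternatives, 189 moved by less than 1 SD over cells and 37 moved further. The remaining 5, all past 1 in size at the main settings, changed sign. Calcrl between the R9 series went from 1.22 to -0.15 with cells scaled by common genes. Without the highest cell of each set, Vipr2 and Nmur1 between the R9 series went to 0.0307 and 0.0824, and Ret went to 0.87 for ending 1 over WT and to 0.35 for all R9 over WT. The highest cells account for these 4 by construction, and the cause of the Calcrl change was not tested. The ratios of Ramp1 and Ramp3 between the R9 series kept their sign under every alternative that gave a value, from -3.70 to -0.94 and from 3.95 to 5.23. Ramp3 for all R9 over WT was 0.81, and -0.29 as a difference of mean log2(TPM + 1). Ramp1 for R9 without an ending over WT was -0.15, below 1 in size, 1.31 on that scale, and between -0.73 and 0.71 under the other alternatives.

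The count of receptor genes past 1 between the R9 series was 6 of 7 compared, and 2 of 7 with a pseudocount of 10 TPM. It was 2 of 7 on mean log2(TPM + 1), 3 of 7 without the highest cells and 0 of 1 without cells with 10% of TPM in 1 gene. For R9 without an ending over WT it was 4 of 5, and 2 of 5 and 0 of 1 under the last 2 settings. In both cases of 0 of 1 only Ramp1 could be compared. For ending 1 over WT it was 5 of 6, and 3 of 6 both on mean log2(TPM + 1) and without the highest cells. For all R9 over WT it was 3, and 1 under each of those, but 5 without cells with 10% of TPM in 1 gene. Over all genes the shares past 1 were 76.5, 64.2, 65.1 and 59.6% at the main settings, and were not computed under these alternatives. R9 cells without an ending had 7 receptor genes at 1 TPM in at least 1 cell, but 2 at 100 TPM and 1 without cells with 10% of TPM in 1 gene. Setting aside 8, 2 and 11 cells with 10000 TPM or more of epithelial markers, an alternative chosen after seeing the data, moved none of the 20 ratios it gave by 1 SD, but 5 of the 7 genes were left to compare between the R9 series, and among R9 cells without an ending Vipr1 and Calcrl were in 0 of 24, as was Vipr1 in 0 of 11 WT cells. Numbers of cells, 1 sample per set and unknown depth limit all values. No paired analysis was possible because the result comes from no test: each set is 1 sample. The 26 pairs of R9 cells with the same title number in both series had Pearson correlations up to 0.522 (median 0.283), and the 1094 pairs with other numbers up to 0.568 (median 0.285).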
